A study of Mus musculus with 8 samples.

Results

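Brush border hydrolases are digestive enzymes anchored in the apical microvilli of enterocytes, the absorptive cells of the small intestine, where they finish the digestion of food at the cell surface. The disaccharidases and glucosidases release monosaccharides, the peptidases release amino acids and short peptides, and intestinal alkaline phosphatase removes phosphate groups, including those of bacterial lipopolysaccharide. The enzymes are typically low in the dividing crypt and high on the villus, so their transcripts serve as marks of enterocyte maturation. The 9 genes described here were chosen by name: Sis, Lct, Treh, Mgam, Alpi, Anpep, Mep1a, Mep1b and Dpp4. Each had 1 row in the deposited gene table, 9 of 55487 named rows, and all 9 passed the filter on low counts that left 14011 genes for testing.

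RNA-seq had been made from ileal crypt cells of C57BL/6 mice given CPT-11 at 20 mg per kg for 7 days (4 libraries, replicates 1 to 4) and of vehicle mice (4 libraries, replicates 1 to 4). CPT-11, or irinotecan, is an anticancer prodrug whose active form traps topoisomerase I on DNA. The route, the number of injections, the age and the sex of the mice were not given in the sources used here, and no genetic alteration is stated for either group. Crypts had been released from the ileum with 20 mM EDTA, passed through a 70-µm strainer and digested with trypsin, and no cell sort is described. In such a bulk sample, fewer cells of a type and less RNA per cell cannot be told apart. Whether every library is a different mouse is not stated in the labels, so the p-values measure the spread between libraries, which may be technical.

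Library totals were between 20790164 and 23479121 estimated counts. CPT-11 replicate 2 stood apart, with a scaling factor of 0.731 against 0.977 to 1.10 in the other 7 libraries, and its values fell by 0.32 on the log2 scale per doubling of gene length. CPT-11 replicate 4 had the next lowest length slope, -0.13, and the other 6 libraries lay between 0.011 and 0.14. The summed level of 16 enterocyte markers was 21369.6 to 67624 CPM (counts per 1000000 of scaled library size) in CPT-11 libraries and 11856 to 19214 CPM in vehicle libraries, with 2 of 16 higher and none lower by the test described next. Crypt base stem cell markers summed to 485 to 733 CPM with CPT-11 and 1558 to 1861 CPM with vehicle, with 4 of 7 lower, and markers of cycling cells to 269 to 351 CPM with CPT-11 and 486 to 684 CPM with vehicle, with 3 of 6 lower. Both groups therefore carried crypt and enterocyte transcripts side by side. Paneth cell markers summed to 25410 to 47248 CPM with CPT-11 and 40823 to 58429 CPM with vehicle, and goblet cell markers to 10604 to 36620.5 CPM with CPT-11 and 10496 to 14648 CPM with vehicle. No gene of these last 2 lists passed the test. At an unadjusted p below 0.05 there were 2 of 7 and 1 of 6, against 24.6% of all genes. Of all genes tested, 2.98% were called higher and 2.52% lower, the background for the counts in these marker lists. B cell markers, at 7.45 to 15.6 CPM with CPT-11 and 1.35 to 5.76 CPM with vehicle, had 4 of 5 higher, and immediate-early and heat shock genes of dissociation stress, at 308 to 413 CPM with CPT-11 and 198 to 284 CPM with vehicle, 4 of 10 higher. The part of these differences in the hydrolase values was not tested.

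None of the 9 hydrolases passed the test across all genes (edgeR quasi-likelihood F test, Benjamini-Hochberg adjusted over 14011 genes, threshold 0.05), against 5.5% of all genes tested. DESeq2 called 2 of the 9, Treh and Mep1a, against 12.1% of the genes it gave an adjusted p, and limma-voom called 0, against 5.67% of genes. At an unadjusted p below 0.05 in edgeR there were 4, Treh, Mep1a, Mep1b and Dpp4, which is 44.4% of the 9 beside 24.6% of all genes. The log2 fold change, CPT-11 over vehicle, was above 0 for 8 of the 9 genes and for 51.3% of all genes, with a median of 0.27 beside 0.01 over all genes. All 4 CPT-11 libraries lay above all 4 vehicle libraries for 1 of the 9, Mep1a, against 8.41% of all genes. The reverse held for none of the 9, against 10.1% of all genes. In simulated counts of the same 14011 genes and library sizes, a change of 1.5-fold was called for 2 of 67 genes, of 2-fold for 29 of 67 and of 4-fold for 57 of 66. The changed genes were drawn at random from all levels and were fewer than the 770 called in the data. These counts therefore do not give the power of the test for the 9 hydrolases.

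**Figure D1:**
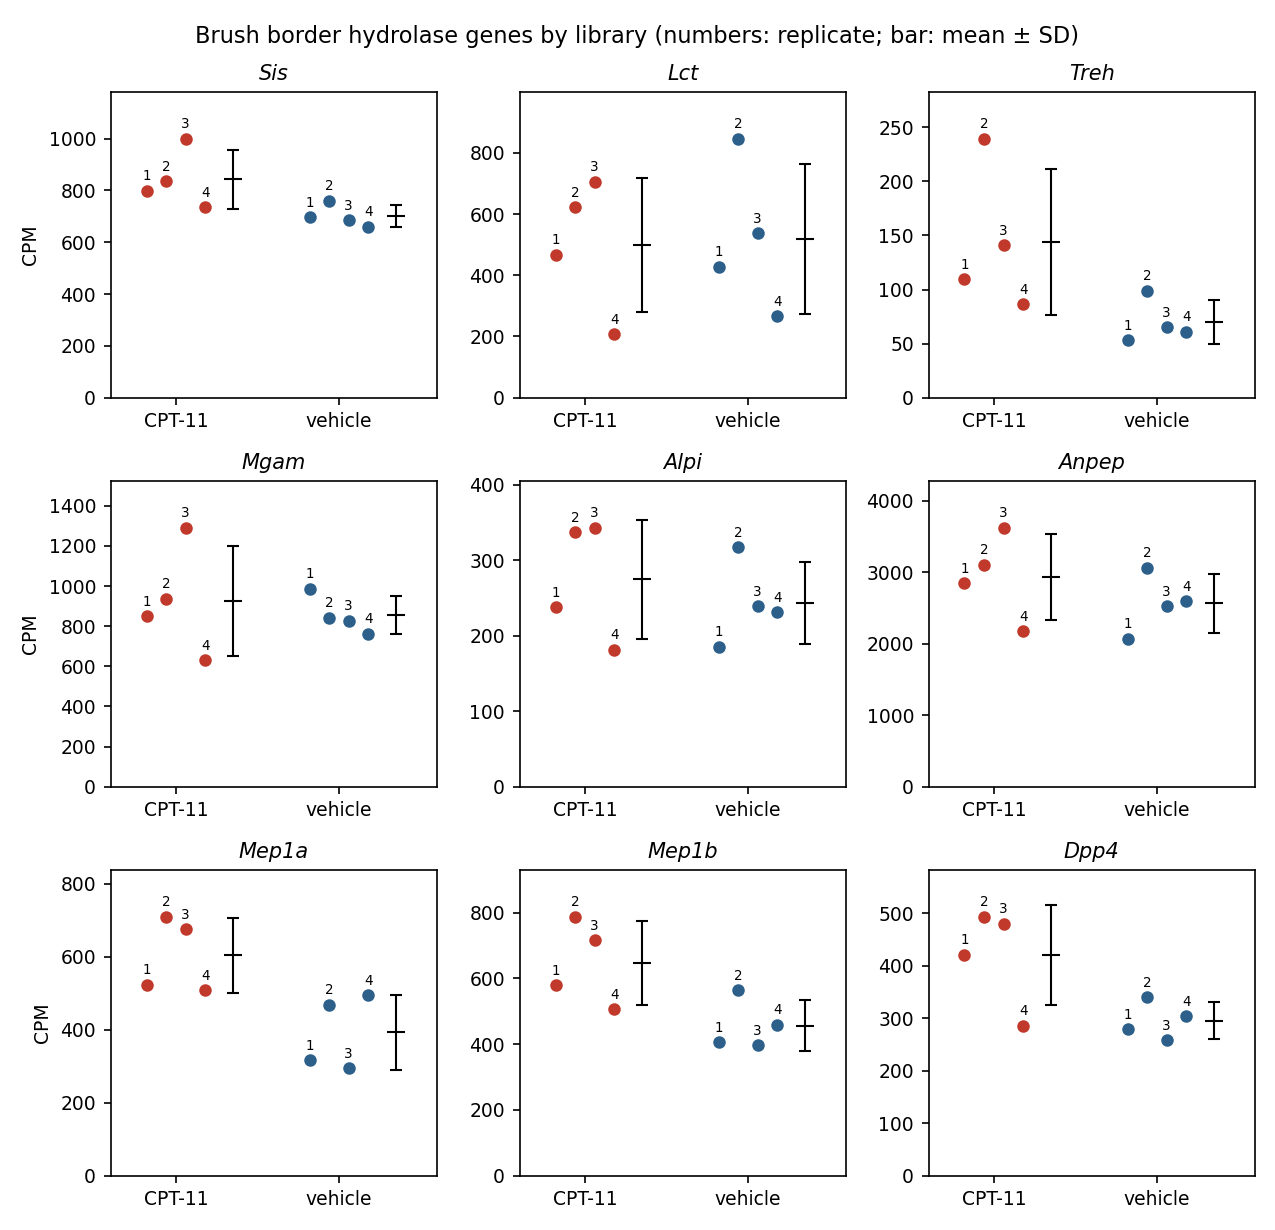
Level of each hydrolase in every library, in CPM on axes that start at 0, with CPT-11 libraries to the left of vehicle libraries in each panel; points are libraries, numbered by replicate, and bars are the mean ± SD of 4 libraries. CPT-11 replicate 4 is the lowest CPT-11 library for all 9 genes, and only Mep1a shows no overlap between the groups.

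**Figure D2:**
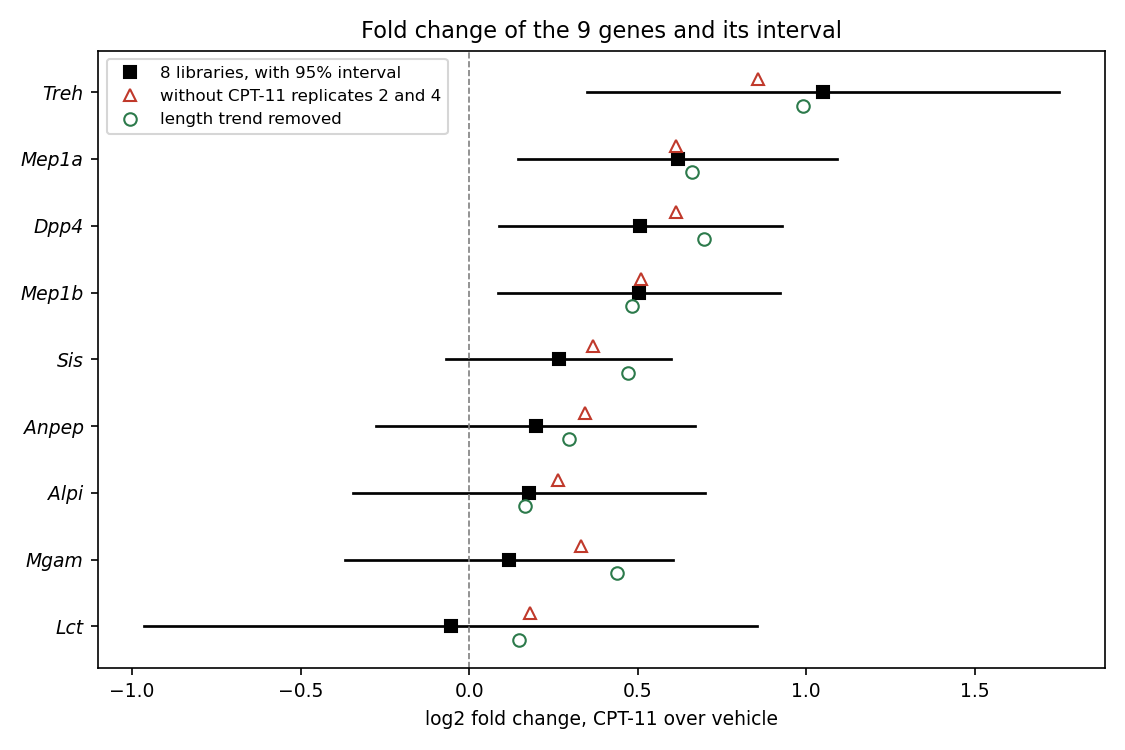
Log2 fold change of each hydrolase, CPT-11 over vehicle, as a square with its 95% interval from the edgeR fit of 8 libraries; triangles are the fit without CPT-11 replicates 2 and 4, circles the fit with the length trend removed, and the dashed line marks no difference. The point estimates run from -0.05 for Lct to 1.05 for Treh, and the intervals of Treh, Mep1a, Mep1b and Dpp4 lie above 0, although no adjusted p of the 8-library fit is below 0.05.

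The summed level of the 9 genes was 6837, 8067, 8979 and 5319 CPM in CPT-11 replicates 1 to 4, against 5421, 7304, 5827 and 5836 CPM in vehicle replicates 1 to 4. The CPT-11 libraries held both the highest sums and the lowest, and the groups overlapped. CPT-11 replicate 3 was the highest CPT-11 library for Sis, Lct, Mgam, Alpi and Anpep, and replicate 2 for Treh, Mep1a, Mep1b and Dpp4. Vehicle replicate 2 was the highest vehicle library for 7 of the 9.

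Sucrase-isomaltase, Sis, splits sucrose and the branch points of starch fragments. The gene lies on the minus strand of chromosome 3, from 72888557 to 72967863 (GRCm38), with 48 exons in the merged GENCODE annotation. Sis had 799, 836, 999.9 and 735 CPM in CPT-11 libraries, against 697, 760.2, 684 and 659.5 CPM in vehicle libraries. The highest vehicle library lay above the lowest CPT-11 library, so the groups overlapped. The means were 842 ± 113 CPM with CPT-11 and 700.3 ± 42.9 CPM with vehicle (SD, n = 4 each), a fold of 1.20 with a 95% interval of 0.954 to 1.52 (edgeR adjusted p = 0.294). Sis passed when the trend with gene length was removed from each library, with a log2 fold change of 0.47 (edgeR adjusted p = 0.045).

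Maltase-glucoamylase, Mgam, releases glucose from the ends of starch chains and stands at 40628831 to 40769123 on the plus strand of chromosome 6. Mgam had 851, 936, 1291 and 631 CPM in CPT-11 libraries, against 986, 843, 827 and 763 CPM in vehicle libraries. CPT-11 libraries were both the highest and the lowest of the 8. The fold was 1.08 with an interval of 0.775 to 1.52 (edgeR adjusted p = 0.759), and without CPT-11 replicate 3 the log2 fold change was -0.09. The neighbouring transcribed pseudogene Mgam2-ps had 67.3, 46.4, 108 and 53.1 CPM in CPT-11 libraries, against 106, 93.2, 82.6 and 76.1 CPM in vehicle libraries (log2 fold change -0.38 ± 0.25 SE, edgeR adjusted p = 0.361). The transcripts of Mgam and Mgam2-ps shared 25 of the 8475 distinct 50-base stretches of Mgam, 0.295%. That count covers exact matches only, and read sharing between the 2 genes was not measured.

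Lactase, Lct, splits milk sugar, is high in suckling mammals and declines after weaning. It lies at 128284756 to 128328318 on the minus strand of chromosome 1. Lct had 467, 622, 706 and 208 CPM in CPT-11 libraries, against 428, 847, 538 and 267 CPM in vehicle libraries. The spread within each group was wide, with a coefficient of variation of 43.8% with CPT-11 and 47.1% with vehicle, and the groups overlapped over most of their range. The fold was 0.963, with an interval of 0.512 to 1.81 (edgeR adjusted p = 0.945). Its sign turned when CPT-11 replicate 4 or vehicle replicate 2 was left out, with log2 fold changes of 0.20 and 0.27.

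Trehalase, Treh, splits the disaccharide trehalose of fungi and insects. It lies at 44673233 to 44686305 on the plus strand of chromosome 9, where its exons overlap those of Phldb1 on the other strand by 2 bases. Treh had 109.8, 239.6, 141 and 86.3 CPM in CPT-11 libraries, against 53.1, 99.1, 65.3 and 60.9 CPM in vehicle libraries. Each CPT-11 library but replicate 4 lay above every vehicle library. The mean was 144 ± 67.5 CPM with CPT-11 and 69.6 ± 20.3 CPM with vehicle (SD, n = 4 each). The fold of 2.07 was the highest of the 9, with an interval of 1.27 to 3.36 (log2 1.05 ± 0.31 SE), and it missed the threshold in edgeR (adjusted p = 0.0819). Treh passed in DESeq2 (adjusted p = 0.0145), and over the alternatives its adjusted p was 0.0145 to 0.225. Without CPT-11 replicate 2, the library that stood apart, the fold was 1.63 (edgeR adjusted p = 0.0892).

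Intestinal alkaline phosphatase, Alpi, sits in a cluster on chromosome 1 with 2 related genes, Akp3, known in the mouse as the duodenal intestinal isozyme, and Alppl2, known as the embryonic type. Alpi spans 87098002 to 87101606 on the minus strand, Alppl2 87086694 to 87089928 on the minus strand and Akp3 87124973 to 87127912 on the plus strand (GRCm38). The related genes belong to the companion list of other hydrolases described further on. The 250 bases upstream of each start are shown because these close relatives gave different values in the same libraries, and those of Treh and Sis because the same motif letters were found there. The sequences are RefSeq's for GRCm38.p6, at chr1:87101607-87101856 (minus strand) for Alpi, chr1:87089929-87090178 (minus) for Alppl2, chr1:87124704-87124953 (plus) for Akp3, chr9:44672983-44673232 (plus) for Treh and chr3:72967864-72968113 (minus) for Sis, read 5′ to 3′ along the gene. The RefSeq start of Akp3 is not the start of a GENCODE transcript. Capitals mark matches, on either strand, to short motifs. The TATA box was searched as TATAAA and the HNF4 site as CAAAGTCCA. The CDX site was searched as TTTATNG and the HNF1 half-site as GTTAAT. The GATA site was searched as AGATAA.
Alpi: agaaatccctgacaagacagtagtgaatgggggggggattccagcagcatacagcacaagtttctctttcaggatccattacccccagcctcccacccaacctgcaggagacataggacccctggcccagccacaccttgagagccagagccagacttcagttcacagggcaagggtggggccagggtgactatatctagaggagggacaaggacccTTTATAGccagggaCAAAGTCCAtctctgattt
Alppl2: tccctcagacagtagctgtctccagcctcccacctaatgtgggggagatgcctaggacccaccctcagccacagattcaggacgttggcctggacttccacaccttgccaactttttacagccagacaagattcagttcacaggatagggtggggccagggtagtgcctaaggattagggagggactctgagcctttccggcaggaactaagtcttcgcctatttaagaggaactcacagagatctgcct
Akp3: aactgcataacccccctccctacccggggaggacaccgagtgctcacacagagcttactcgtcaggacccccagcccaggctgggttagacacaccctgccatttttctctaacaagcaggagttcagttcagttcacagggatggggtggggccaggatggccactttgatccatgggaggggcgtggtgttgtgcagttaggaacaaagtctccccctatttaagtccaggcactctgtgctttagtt
Treh: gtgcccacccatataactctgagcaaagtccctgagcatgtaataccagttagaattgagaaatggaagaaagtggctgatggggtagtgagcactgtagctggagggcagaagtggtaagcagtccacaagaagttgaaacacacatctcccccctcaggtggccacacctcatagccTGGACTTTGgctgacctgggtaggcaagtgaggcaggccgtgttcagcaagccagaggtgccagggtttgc
Sis: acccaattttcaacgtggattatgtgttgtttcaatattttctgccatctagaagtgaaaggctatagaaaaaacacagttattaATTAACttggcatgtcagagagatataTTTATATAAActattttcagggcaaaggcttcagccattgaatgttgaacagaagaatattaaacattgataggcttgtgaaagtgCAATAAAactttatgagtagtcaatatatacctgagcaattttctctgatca
The HNF4 letters were found 19 bases before the start of Alpi and, on the opposite strand, 71 bases before that of Treh, 2 of the 8 hydrolase promoters searched, against 0.384% of 32851 promoters of the same length. In Alpi the CDX letters overlapped the TATA letters, and Sis held the CDX letters, the HNF1 letters and a pair of overlapping TATA matches. The CDX letters were in 3 of the 8 hydrolase promoters and 9.81% of all promoters, and the HNF1 letters in 1 and 6.43%. The GATA letters were in 3 of the 8 and 9.99% of all promoters, and the TATA letters in 4 and 12.4%. No match to these letters was in the Alppl2 and Akp3 windows. Near matches were not searched, so related elements in the 2 windows are not excluded. Aligned end to end, the Alpi window had 53.6% of columns identical to that of Alppl2 and 52.5% to that of Akp3, beside 44.4% between the unrelated Sis and Treh windows. A match of letters is a description of the sequence and not a measured site.

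Alpi had 238, 337, 343 and 181 CPM in CPT-11 libraries, against 185, 317, 239 and 231 CPM in vehicle libraries. The groups overlapped, with CPT-11 libraries at both ends. The fold was 1.13 with an interval of 0.787 to 1.62 (edgeR adjusted p = 0.659). Alppl2 had 2.82, 3.39, 3.85 and 3.36 CPM in CPT-11 libraries, against 11.1, 11.2, 13.3 and 12.8 CPM in vehicle libraries. Alppl2 fell, with every CPT-11 library below every vehicle library (log2 fold change -1.85 ± 0.16 SE, edgeR adjusted p = 0.00037). Akp3 had 0.318, 0.185, 0.251 and 0.198 CPM in CPT-11 libraries, against 1.66, 1.80, 1.96 and 2.39 CPM in vehicle libraries. These were 7, 3, 6 and 4 counts with CPT-11 and 38, 38, 47 and 56 counts with vehicle, and Akp3 fell too (log2 fold change -2.99 ± 0.32 SE, edgeR adjusted p = 0.00129). Both genes passed under each of the 19 alternative settings.

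The level of Alpi relative to that of Alppl2, as a ratio of CPM + 0.5, was 71.9, 86.6, 79.0 and 47.1 in CPT-11 libraries, against 16.0, 27.2, 17.3 and 17.3 in vehicle libraries. The ratio to Akp3 was 291, 492, 457 and 261 in CPT-11 libraries, against 86.2, 138, 97.2 and 80.0 in vehicle libraries. Neither ratio overlapped between groups, and they differed 3.65-fold and 3.69-fold (exact two-sided permutation tests over 4 against 4 libraries, p = 0.0286 each, the smallest that 70 permutations allow, and the same after adjustment over the 2 ratios). These ratios were chosen after the values had been seen. The falls of Alppl2 and Akp3 without overlap were then already known. The ratios restate those falls, and their p-values are no separate evidence of a change in Alpi. Since Akp3 lay below the pseudocount in CPT-11 libraries, the size of its difference depends on it. With 0.1 CPM the log2 differences were 1.98 for Alppl2 and 2.76 for Akp3 (adjusted p = 0.0286 in the exact test). With 2 CPM they were 1.55 and 0.97 (adjusted p = 0.0571 in the exact test), so which relative differed more is not settled. The transcripts shared 1 of 2288 distinct 50-base stretches of Alpi with Alppl2 and 35 of 2288 with Akp3, 1.53%. Reads from these stretches could be assigned to either gene, and the count does not cover reads with mismatches. The Akp3 counts are low enough for such reads to matter, and their part in the result was not tested.

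**Figure D3:**
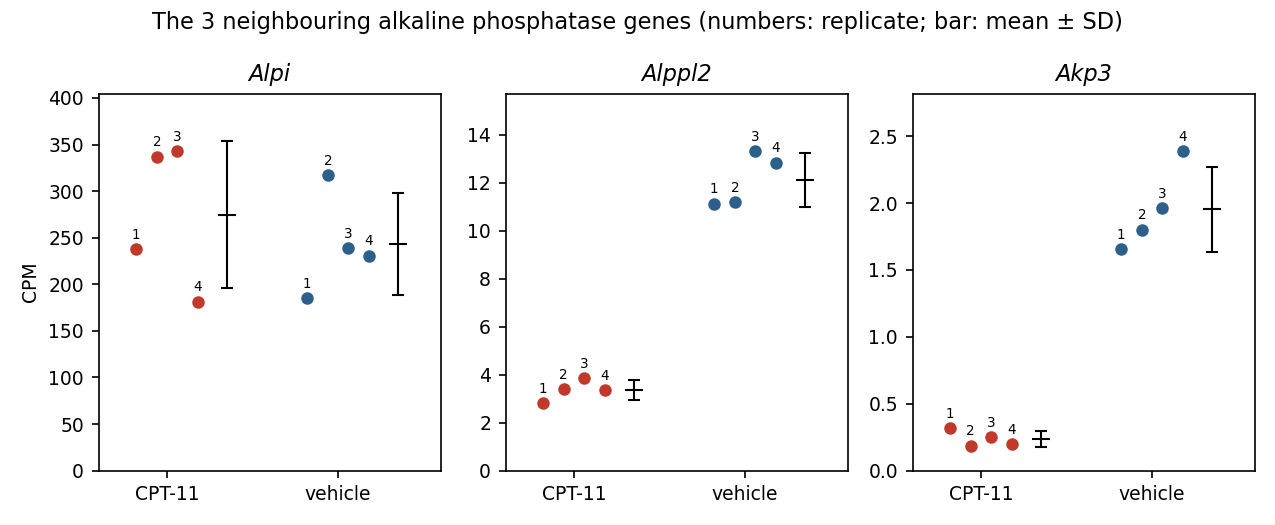
Level of the 3 alkaline phosphatase genes in every library, in CPM on axes that start at 0, CPT-11 libraries left of vehicle libraries; points are libraries, numbered by replicate, and bars are the mean ± SD of 4 libraries. The groups overlap for Alpi, whereas all CPT-11 libraries lie below all vehicle libraries for Alppl2 and Akp3.

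Aminopeptidase N, Anpep, removes amino acids one at a time from the start of peptides and was the most abundant of the 9. It lies at 79821803 to 79861059 on the minus strand of chromosome 7. Anpep had 2849.8, 3105, 3626 and 2178 CPM in CPT-11 libraries, against 2069, 3065, 2525 and 2597 CPM in vehicle libraries. The groups overlapped, with CPT-11 replicate 4 below 3 of the 4 vehicle libraries. The fold was 1.15 with an interval of 0.826 to 1.59 (edgeR adjusted p = 0.581).

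Meprin A subunit alpha and subunit beta, Mep1a and Mep1b, are metalloproteases that cleave peptides. Mep1a lies at 43474324 to 43502812 on the minus strand of chromosome 17 and Mep1b at 21061923 to 21100199 on the plus strand of chromosome 18. Mep1a had 524, 709.9, 675 and 508 CPM in CPT-11 libraries, against 317, 469, 294 and 495 CPM in vehicle libraries. The lowest CPT-11 library was just above the highest vehicle library. The means were 604 ± 103 CPM with CPT-11 and 394 ± 103 CPM with vehicle (SD, n = 4 each), a fold of 1.54 with an interval of 1.11 to 2.13 (edgeR unadjusted p = 0.0156, adjusted p = 0.117; DESeq2 adjusted p = 0.043). Mep1b had 579, 788, 717 and 505 CPM in CPT-11 libraries, against 405, 565, 396 and 459.5 CPM in vehicle libraries. The CPT-11 libraries were higher on average, with replicate 4 below the highest vehicle library. The fold was 1.42 with an interval of 1.06 to 1.90 (edgeR adjusted p = 0.142).

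Dipeptidyl peptidase 4, Dpp4, removes dipeptides from peptides with proline or alanine at the second position and inactivates incretin hormones. It lies at 62330073 to 62412231 on the minus strand of chromosome 2, where the antisense gene Gm13561 overlaps 232 of its exon bases and had 1 to 6 counts in a library. Dpp4 had 421, 494, 480.1 and 286 CPM in CPT-11 libraries, against 279, 339.8, 258 and 304 CPM in vehicle libraries. CPT-11 replicate 4 lay within the vehicle range and the other 3 CPT-11 libraries above it. The fold was 1.42 with an interval of 1.06 to 1.90 (edgeR adjusted p = 0.139). Without CPT-11 replicates 2 and 4 the log2 fold change was 0.61 and passed (edgeR adjusted p = 0.0142). T cells also carry Dpp4 (CD26), and fibroblasts and myeloid cells carry Dpp4 or Anpep (CD13). T cell markers summed to 93.2 to 157 CPM with CPT-11 and 55.7 to 146 CPM with vehicle, fibroblast markers to 16.5 to 104 CPM with CPT-11 and 7.54 to 42.3 CPM with vehicle, and macrophage and dendritic cell markers to 43.5 to 58.7 CPM with CPT-11 and 37.5 to 48.9 CPM with vehicle. Of the genes tested in these lists, 0 of 6, 0 of 5 and 1 of 5 were higher by edgeR, against 2.98% of all genes, and none was lower. At an unadjusted p below 0.05 in edgeR there were 1, 1 and 2, against 24.6% of all genes. The part of these cells in the Dpp4 and Anpep values was not tested.

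Levels can be compared between genes only per length, here as CPM per kilobase of the length given in the deposited table. Anpep was highest, at 774 CPM per kilobase with CPT-11 and 675 with vehicle, rank 154 and rank 142 among the 14011 genes. Mep1b followed at 283 with CPT-11 and 199.7 with vehicle, then Mep1a at 207 with CPT-11 and 135 with vehicle. Sis had 143 with CPT-11 and 119 with vehicle, and Alpi 118 with CPT-11 and 104 with vehicle. Lct had 81.1 with CPT-11 and 84.2 with vehicle, Mgam 85.5 with CPT-11 and 78.8 with vehicle, and Dpp4 79.8 with CPT-11 and 56.1 with vehicle. Treh had 70.4 with CPT-11 and 34.0 with vehicle, the lowest of the 9 on these lengths. Along the vehicle order, the library ranges of Mep1a, Sis, Alpi, Lct and Mgam overlapped from each gene to the next, and the other steps did not overlap. Among the CPT-11 libraries, the steps from Anpep to Mep1b and from Mep1a to Sis did not overlap. With merged GENCODE exon lengths the order differed below Mep1a. In vehicle libraries Sis then lay below Alpi and Mgam, at 93.8 against 104 and 98.2 CPM per kilobase. In CPT-11 libraries Sis, at 113, lay below Alpi, at 118, and above Mgam, at 107, and Dpp4, at 66.5, lay below Treh, at 70.4.

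The 9 genes varied together within groups. Over the 36 pairs, the correlation of the deviations of log2 values from their group means across the 8 libraries was 0.22 (Mgam and Mep1a) to 0.96 (Alpi and Anpep), with a median of 0.74, and 32 pairs were above 0.5. The meprin subunits gave 0.84, Mep1b and Dpp4 0.90, and Treh and Mep1b 0.92. These points share a library, its depth and its scaling, so the values describe the libraries and carry no p. Whether the 9 genes varied together more than other genes of the same libraries was not tested.

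Over the 8 libraries, the gene with the highest Pearson correlation to Sis was Mfsd2a (0.988), to Lct Ogdh (0.962), to Treh Cyp4b1 (0.995), to Mgam Efcab14 (0.964) and to Mep1a Pmp22 (0.992). For Mep1b it was 2010106E10Rik (0.990) and for Dpp4 Pls1 (0.986), the microvillus actin bundler plastin 1. Alpi and Anpep shared the same nearest gene, Gm44292, at 0.979 and 0.956. Gm44292 was near the pseudocount of 0.5 CPM, with means of 0.545 CPM with CPT-11 and 0.369 CPM with vehicle. The next nearest were Mpp5 (0.961) for Sis, Asah2 (0.945), the brush border neutral ceramidase, for Lct, Gm11127 (0.992) for Treh, Fmn1 (0.959) for Mgam, Abcg8 (0.973), a half-transporter of sterols, for Alpi, Synpo (0.955) for Anpep, Map3k6 (0.986) for Mep1a, Bst1 (0.989) for Mep1b and Plekha1 (0.982) for Dpp4. These are the extremes among 14011 genes over 8 points that include the group difference, and are given as a description.

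Ratios between hydrolases in the same library do not depend on library size, but the trend with gene length was not removed from them. Treh per Sis was 0.138, 0.287, 0.141 and 0.118 in CPT-11 libraries, against 0.0768, 0.131, 0.0962 and 0.0930 in vehicle libraries, and the groups overlapped through 1 library each. The difference in mean log2 ratio was 0.72 (exact two-sided permutation test, p = 0.0571, adjusted over the 6 ratios 0.257). Without CPT-11 replicate 2, the library with the steepest length trend, it was 0.44 (exact permutation p = 0.0857, adjusted 0.343). Anpep per Dpp4 was 6.76, 6.29, 7.55 and 7.60 in CPT-11 libraries, against 7.40, 9.01, 9.76 and 8.53 in vehicle libraries, a log2 difference of -0.30 (exact permutation p = 0.0857, adjusted 0.257). Mep1b per Mep1a was 1.11, 1.11, 1.06 and 0.994 in CPT-11 libraries, against 1.28, 1.20, 1.35 and 0.929 in vehicle libraries (exact permutation p = 0.257). Lct per Sis varied more within groups than between them, at 0.584, 0.744, 0.706 and 0.283 in CPT-11 libraries, against 0.614, 1.11, 0.786 and 0.405 in vehicle libraries (exact permutation p = 0.457). Mgam per Sis gave an exact permutation p of 0.286 and Alpi per Anpep 0.686. None of the 6 ratios passed after adjustment, nor at an unadjusted p below 0.05.

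The hydrolases were also set against the mean log2 level of the 16 enterocyte markers of the same library. On that scale Sis was at 0.21, -0.66, 0.46 and 0.40 in CPT-11 libraries, against 1.01, 0.64, 1.11 and 0.75 in vehicle libraries. All CPT-11 libraries of Sis were below all vehicle libraries, by 0.77 in the mean. Alpi was lower by 0.88, Anpep by 0.85, Mep1b by 0.54 and Dpp4 by 0.55, again without overlap (exact two-sided permutation tests, 4 against 4, p = 0.0286 each, the smallest possible, adjusted over the 9 genes 0.0514). Lct and Mgam differed by -1.11 and -0.96 with overlap (exact permutation p = 0.0571, adjusted 0.0735), Mep1a by -0.39 (p = 0.0857 in the exact test) and Treh by -0.06 (p = 0.629 in the exact test). None passed after adjustment. All CPT-11 libraries were below all vehicle libraries for 5 of the 9 and for 59.4% of all genes on this scale, and above them for none of the 9 and 0.343% of all genes, so the share among the hydrolases was near the background. The marker list carries this shift, with a median log2 fold change of 1.02, and its mean log2 level was highest in CPT-11 replicate 2, at 10.4, against 9.12 to 9.51 in the other CPT-11 libraries and 8.31 to 8.93 in vehicle libraries. Against the genes of brush border structure instead, Treh (0.57), Mep1a (0.23), Mep1b (0.09) and Dpp4 (0.07) had a positive difference. Their p-values in the exact permutation test were 0.0571, 0.171, 0.143 and 0.457. Sis (-0.15), Lct (-0.48), Mgam (-0.33), Alpi (-0.26) and Anpep (-0.22) kept a negative difference (exact permutation p = 0.114 to 0.314). None of the 9 passed with that yardstick (smallest adjusted p = 0.257 in the exact test).

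**Figure D4:**
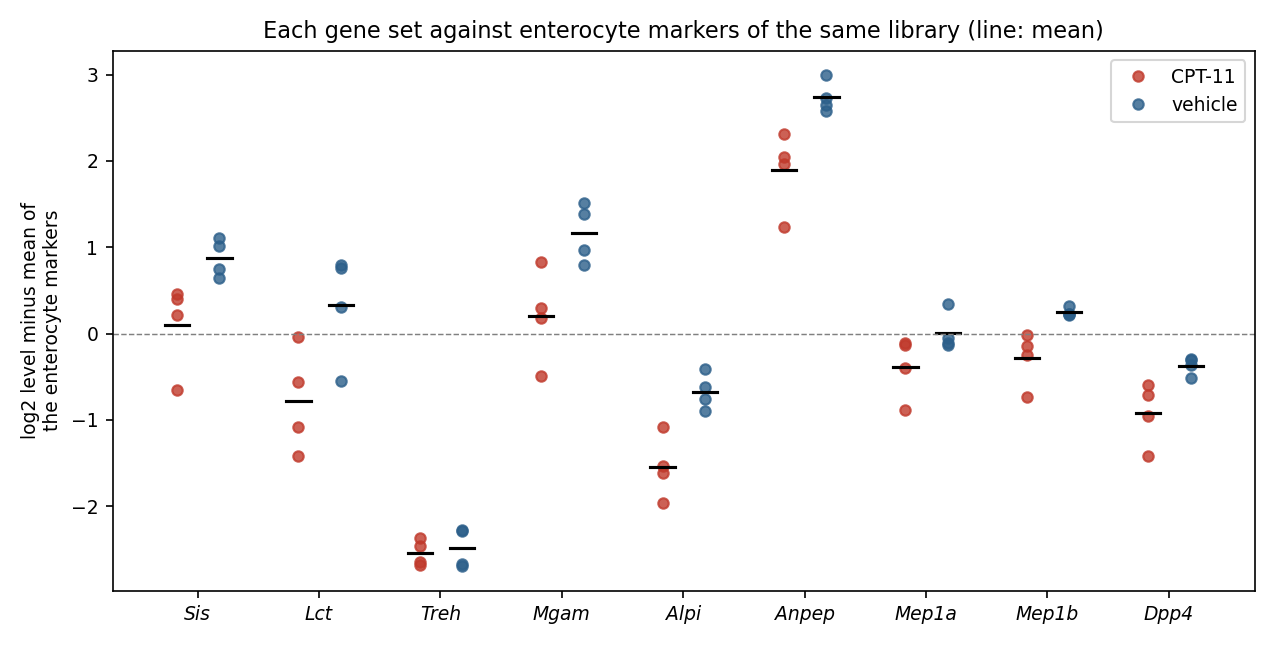
Log2 level of each hydrolase minus the mean log2 level of 16 enterocyte markers in the same library, CPT-11 libraries left of vehicle libraries; points are libraries and short lines are group means. Sis, Alpi, Anpep, Mep1b and Dpp4 show no overlap, and Treh has nearly equal means, -2.54 with CPT-11 and -2.48 with vehicle.

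Another 5 lists of companion genes were read in the same fit, with the share of all genes called higher, 2.98%, and lower, 2.52%, as background. Of 20 other hydrolases of the brush border and the lumenal face, 17 were tested, and 2 fell, the alkaline phosphatases Alppl2 and Akp3, with a list median of 0.36. Ggt1, gamma-glutamyltransferase, had 399 ± 161 CPM with CPT-11 and 216 ± 35.7 CPM with vehicle (edgeR adjusted p = 0.0711; SD, n = 4 each). Without CPT-11 replicate 2 the fold of Ggt1 was 1.49, against 1.85 with all libraries, and passed (edgeR adjusted p = 0.0298).

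Of 19 genes of brush border structure, 1 rose and none fell, with a median of 0.33. Tmigd1, an adhesion protein of the microvillus membrane, rose to 249 ± 107 CPM with CPT-11, against 42.2 ± 25.1 CPM with vehicle (SD, n = 4 each), a fold of 5.90 (edgeR adjusted p = 0.00966). With CPT-11 replicates 2 and 4 left out, and so 2 fewer libraries, its fold was 4.20 and its adjusted p in edgeR 0.0923. Pdzk1, a scaffold (log2 fold change 0.76), Espn, the actin bundler espin (1.23), and Pls1 (0.50) did not pass, with adjusted p of 0.0626, 0.0943 and 0.148 in edgeR. Without CPT-11 replicate 2 the log2 fold change of Espn was 0.65 (edgeR adjusted p = 0.0511).

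Of 15 listed transporters, 1 fell and none rose, with a median of 0.28. The list was named for the sugars and peptides that hydrolases release but also held carriers of amino acids, taurine and phosphate. Its count is therefore not a result on sugar or peptide uptake alone. Slc1a1, the glutamate and aspartate transporter, fell to 54.9 ± 4.23 CPM with CPT-11, against 105 ± 7.36 CPM with vehicle (SD, n = 4 each; log2 fold change -0.94 ± 0.11 SE, edgeR adjusted p = 0.0022), and passed under each of the 19 alternatives. Slc6a6, the taurine transporter (log2 fold change -0.72), Slc34a2, a phosphate transporter (0.80), and Slc3a1, the heavy subunit of a cystine transporter (0.62), had adjusted p of 0.0734, 0.0791 and 0.0819 in edgeR.

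Of 18 transcription factors known to act on brush border genes, 17 were tested and none passed in edgeR. In limma-voom 0 were called, against 5.67% of all genes. DESeq2 called 2, both lower, against 12.1% of the genes it gave an adjusted p. The median was -0.23. Gata4 had 42.2 ± 10.0 CPM with CPT-11 and 72.3 ± 15.1 CPM with vehicle (edgeR adjusted p = 0.0549), and Hnf4a 559 ± 91.0 CPM with CPT-11 and 765 ± 52.3 CPM with vehicle (edgeR adjusted p = 0.124; SD, n = 4 each). Foxa2, with a log2 fold change of -0.49, had an adjusted p of 0.164 in edgeR. At an unadjusted p below 0.05 in edgeR there were 4 of 17, near the 24.6% of all genes. The other companion lists lay above that share. They had 8 of 17 other hydrolases, 8 of 19 structure genes, 8 of 15 transporters and 10 of 16 enterocyte markers.

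Of the 16 enterocyte markers, 2 rose and none fell, with a median of 1.02. Slc10a2, the ileal bile acid transporter, rose to 50.6 ± 13.9 CPM with CPT-11, against 9.77 ± 7.58 CPM with vehicle, a fold of 5.17 (edgeR adjusted p = 0.0192; SD, n = 4 each). Fabp2, the intestinal fatty acid binding protein, rose to 9161 ± 6651 CPM with CPT-11, against 2374 ± 563 CPM with vehicle, a fold of 3.86 (edgeR adjusted p = 0.0337). CPT-11 replicate 2 carried much of that value, and without it the fold was 2.49 (edgeR adjusted p = 0.00525). Neither call was stable when single libraries were left out: Slc10a2 missed the threshold when vehicle replicate 1, 2 or 3 or CPT-11 replicate 4 was left out (folds of 4.32 to 5.00, edgeR adjusted p = 0.054 to 0.0735), and Fabp2 when CPT-11 replicate 1 or any 1 vehicle library was (folds of 3.55 to 4.20, edgeR adjusted p = 0.0574 to 0.12). Without vehicle replicate 4 the fold of Slc10a2 was 8.28 (edgeR adjusted p = 0.00319). Krt20, a keratin of mature epithelium (log2 fold change 0.64), and Ada, adenosine deaminase (1.03), had adjusted p of 0.0779 and 0.0975 in edgeR.

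**Figure D5:**
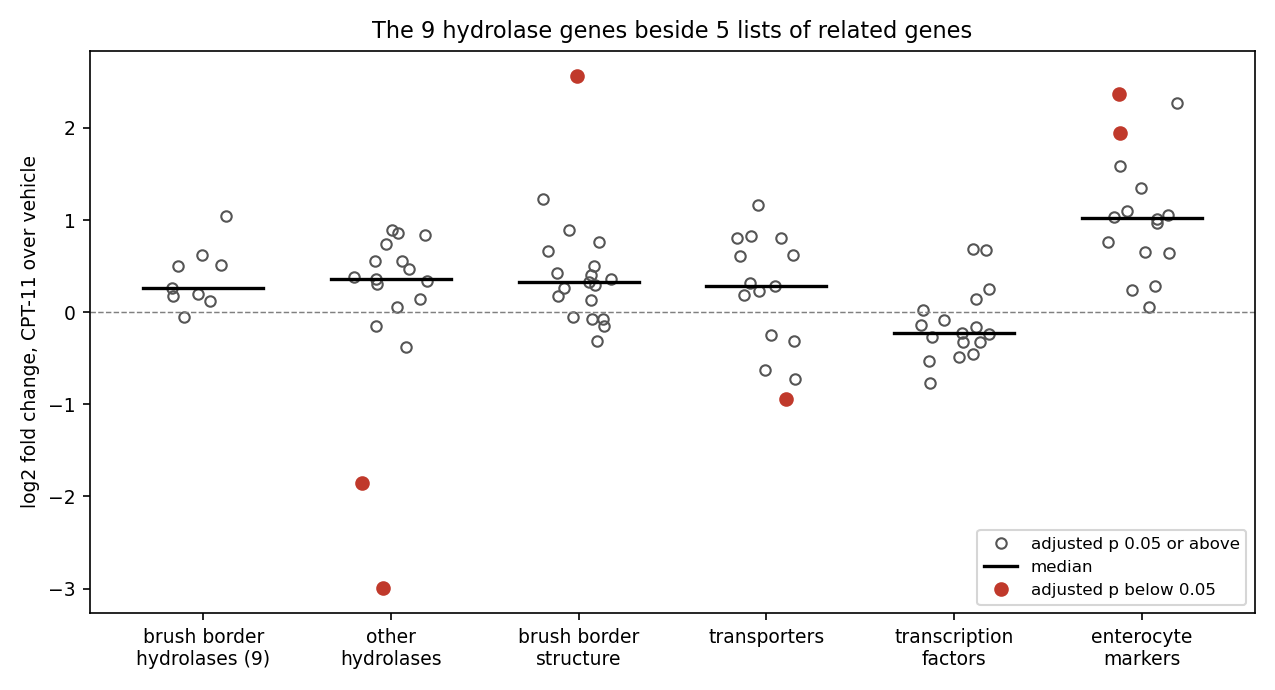
Log2 fold change, CPT-11 over vehicle, of the 9 hydrolases and of the tested genes of 5 companion lists; each point is a gene, filled where its edgeR adjusted p is below 0.05, and lines are list medians. The medians are 0.27 for the 9 hydrolases, 0.36 for other hydrolases, 0.33 for brush border structure, 0.28 for transporters, -0.23 for transcription factors and 1.02 for enterocyte markers.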

How the data were processed

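RNA-seq of ileal crypt cells was read from 1 deposited table of 56030 rows and 8 libraries. The authors deposited estimated counts per gene, most of them whole, with 10.3 to 11.1% of values not whole. Per the submitters' processing notes, reads were mapped with Bowtie2 2.4.1 to GRCm38.p6. The tool that estimated the counts and its strand setting were not given in the sources used here. Rows with no gene name, 543 with 0.325 to 0.662% of counts, were left out.

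Counts were rounded and tested with edgeR 4.0.16 (TMM scaling, filterByExpr with a minimum count of 10, robust quasi-likelihood F test, two-sided) on R 4.3.3, CPT-11 against vehicle with group as the single term. Adjusted p-values are Benjamini-Hochberg values over all 14011 genes, with a threshold of 0.05. Standard errors are the log2 fold change over the root of F. The test was tried on simulated counts. CPM uses the TMM-scaled library size, and log2 levels use a pseudocount of 0.5 CPM. Ratios and levels relative to enterocyte markers were compared by exact two-sided permutation tests over 70 arrangements, whose smallest p is 0.0286. Intervals and p-values cover these libraries only. Coordinates are from GENCODE M21, and promoters from RefSeq for GRCm38.p6. RefSeq promoter sequences were matched for 8 of the 9 genes, all but Mep1b.

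Alternatives were DESeq2 1.42.0, limma-voom 3.58.1 with and without quality weights, other scalings and filters, a replicate block, each library left out, CPT-11 replicates 2 and 4 left out together, removal of the length trend, read-sharing genes summed and, added after the data had been seen, library totals without scaling factors and the ratios of Alpi to its relatives. The 9 genes and the companion lists were chosen with earlier results of these data known. Named genes were the 9 members, up to 4 genes per companion list with the smallest p (2 each way where both rises and falls passed), and the 2 genes most correlated with each member. A pair of companion genes that this rule takes is not reported here.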

Additional observations from a re-analysis of the deposited data

Results flagged for a closer look

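In groups of 4, a library was set apart where its gap to the nearest library took up more of the group's range than Dixon's 95% critical value for 4 samples. This held in 8 of 124 groups tested, and chance gives about 1 in 20. CPT-11 replicate 2 was far above the other CPT-11 libraries for Ggt1 (638 CPM, next 348), Espn (398 CPM, next 145) and Fabp2 (19045.5 CPM, next 6743), and far below them in the mean log2 level of crypt base stem cell markers (5.04, next 5.37). CPT-11 replicate 4 was far below the others for Pls1 (403 CPM, next 648). Vehicle replicate 2 was far above the other vehicle libraries for the mean log2 level of the other hydrolases (5.96, next 5.63) and for the log2 ratio of Alpi to Alppl2 (4.76, next 4.12). Vehicle replicate 4 was far above the others for Mep1a relative to enterocyte markers (log2 0.34, next -0.06). None of the 9 hydrolases was set apart by this test in CPM.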

How the results depend on the processing

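The count of all genes called was 770 (417 higher and 353 lower). It was 1813 (1006 and 807) with DESeq2, 3172 (1548 and 1624) with limma-voom with quality weights, 1212 (637 and 575) without CPT-11 replicates 2 and 4, 1297 (684 and 613) with the length trend removed and 383 (213 and 170) without scaling factors, which moved the median of all genes to -0.11 and that of the 9 hydrolases to 0.15. Leaving out 1 library gave 236 to 1522 (132 to 769 and 104 to 753), lowest without vehicle replicate 3 and highest without CPT-11 replicate 3. Of the hydrolases, 2 passed with DESeq2 (Treh, Mep1a), against 12.1% of the genes it gave an adjusted p. With quality weights 2 passed (Treh, Dpp4), against 3172 of all 14011 genes. With the length trend removed 2 passed (Sis, Dpp4), against 1297 of all 14011 genes. Without CPT-11 replicates 2 and 4, 1 passed (Dpp4), against 1212 of 14600 genes tested. None passed with any 1 library left out. The companion lists had 3 higher and 3 lower. They had 17 and 7 with DESeq2, 20 and 12 with quality weights, 11 and 5 without CPT-11 replicates 2 and 4, 9 and 5 with the length trend removed, 5 lower with no filter, and 1 to 4 higher and 3 to 8 lower with 1 library left out. Among the named genes, calls gained with 1 library left out were those of Ggt1 without CPT-11 replicate 2, of Slc6a6 (edgeR adjusted p = 0.0252), Gata4 (0.0198) and Mgam2-ps (0.0421) without CPT-11 replicate 3, of Pdzk1 without vehicle replicate 2 (0.0495) and of Gata4 without vehicle replicate 4 (0.046).

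The sign of Mgam turned without CPT-11 replicate 3 (-0.092), with a range of -0.092 to 0.26 over single libraries left out. That of Lct, with a range of -0.27 to 0.27, turned without CPT-11 replicate 4 (0.20), without vehicle replicate 2 (0.27), without CPT-11 replicates 2 and 4 (0.18) and with the length trend removed (0.15). Alpi per Anpep turned, with a difference near 0, without CPT-11 replicate 1 (0.01), CPT-11 replicate 4 (0.02) or vehicle replicate 2 (0.01). Relative to enterocyte markers, Treh turned without vehicle replicate 2 (0.0082) or 3 (0.015), with a range of -0.13 to 0.015, and with brush border structure as the yardstick Treh (0.57), Mep1a (0.23), Mep1b (0.085) and Dpp4 (0.072) turned. Without CPT-11 replicate 3, 7 of the 9 relative levels passed, against 0 in all libraries. Each of the 7 had p = 0.0286 in the exact permutation test (adjusted 0.0367). Sis, Alpi, Anpep, Mep1b and Dpp4 had that same exact p in all libraries (adjusted 0.0514). More of the 9 genes shared it without CPT-11 replicate 3, which lowers the adjusted value. In all libraries, 59.4% of all genes had every CPT-11 library below every vehicle library on this scale. That share was not computed without CPT-11 replicate 3. The cause of these changes in sign and in calls was not tested.

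With the replicate number as a block, 1 hydrolase passed (Treh, log2 fold change 0.98, adjusted p = 0.0216 in edgeR), against 686 of all 14011 genes. The companion lists then had 9 higher and 6 lower. Deviations of same-numbered libraries correlated at 0.31, 0.17, -0.16 and 0.12, so the labels and the data do not show that the numbers pair the libraries. The ratios of Alpi to Alppl2 and to Akp3 kept their direction, with log2 differences of 1.55 and 0.97 at a pseudocount of 2 CPM. Their exact test cannot reach 0.05 with the block (smallest p = 0.125) or without CPT-11 replicates 2 and 4 (0.0667). Read sharing could not be measured from counts, and the Akp3 counts of 3 to 7 with CPT-11 limit its fold.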
